A study of Homo sapiens with 10 samples.

Results

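The genes described here are 41 members of the actin cytoskeleton and of the programme driven by serum response factor (SRF), out of 20263 genes in the deposited table. They were taken by name, without a cut on measured values, but earlier results of these data were known when they were chosen. They comprise actins, tropomyosins, non-muscle myosin chains, calponins and transgelins, crosslinkers, LIM proteins, filament assembly factors, SRF and its coactivators MRTFA and MRTFB. All 41 were found. They were measured by mRNA sequencing in PANC-1, an established human pancreatic carcinoma line, in 2 groups of 5 libraries. LY libraries (LY-1 to LY-5) came from cells given 20 µM lycorine for 24 h, a plant alkaloid known to block protein synthesis on ribosomes. DMSO libraries (NC-1 to NC-5) came from cells given the vehicle. The series title asks what lycorine does to PANC-1, and the labels set LY against DMSO. Nothing in the sources used here tells whether replicate libraries stem from separate cultures, so p-values cover only the spread among these samples, which may be technical. Values are TPM, transcript abundance per transcript length scaled to a common library total, and sequencing depth cannot be read from them.

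Actin cycles between monomers (G-actin) and filaments (F-actin), and this cycle feeds back on transcription. G-actin binds MRTFA and MRTFB through their RPEL motifs and holds them out of the nucleus, and when monomers are used up in filaments the coactivators enter the nucleus and join SRF. SRF binds the CArG box, a run of A and T bases between CC and GG, in the promoters of genes for actins, tropomyosins, calponins, transgelin, vinculin, filamins, FHL proteins and SRF itself. In carcinoma cells this programme is known for its part in cell shape, adhesion and migration.

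Because SRF binds there, the promoters of the members were searched for CArG boxes. RefSeq windows on GRCh38.p14, which reach from 250 bases before to 50 bases after each annotated start, were available for 38 of the 41 members, in 81 windows. ACTB, MYL9 and TAGLN are not in that table. A CArG box on either strand was found in 8 of the 38 members (21.1%) and in 10 of their 81 windows (12.3%). Among all promoters in the table it was found in 1.60% of 27305 genes and in 1.29% of 35116 windows. The list includes genes known as SRF targets, so a higher share follows in part from how it was chosen. Members also have more windows per gene than the table at large, which makes the share of windows the closer comparison. Overlapping windows of a gene count separately, however, and the CArG box at the upstream FHL2 start lies in more than 1 of them. The 8 members were ACTG1, TPM4, CNN2, ACTN1, FLNA, FHL1, FHL2 and SRF. More than 1 window was searched for FHL1 (12), ACTN1 (4), FHL2 (4), TPM4 (3) and SRF (2), and for each of them some windows held no box. Which starts are used in PANC-1 cannot be read from gene-level values. Each sequence is shown 5′ to 3′ on the gene's strand with 40 bases of flank, ending at the start site where that is nearer, and the capitals mark the CArG box. SRF was to be shown in any case as a classical target, and the other 7 genes were chosen after the search because they held a match. A match describes the letters of the window and does not show that SRF binds there.
SRF, chr6:43171199-43171268, plus strand, 70 bases before the start site to the last base before it, 2 matches: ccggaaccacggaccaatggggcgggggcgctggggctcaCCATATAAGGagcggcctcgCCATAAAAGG
ACTG1, chr17:81512844-81512933, minus strand: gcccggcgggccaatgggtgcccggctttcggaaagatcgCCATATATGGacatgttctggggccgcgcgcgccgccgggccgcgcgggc
TPM4, chr19:16067325-16067414, plus strand: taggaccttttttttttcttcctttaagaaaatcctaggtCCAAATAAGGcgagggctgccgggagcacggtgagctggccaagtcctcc
CNN2, chr19:1026479-1026568, plus strand: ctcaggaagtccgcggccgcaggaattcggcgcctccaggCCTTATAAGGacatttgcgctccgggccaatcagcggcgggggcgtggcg
ACTN1, chr14:68977688-68977777, minus strand: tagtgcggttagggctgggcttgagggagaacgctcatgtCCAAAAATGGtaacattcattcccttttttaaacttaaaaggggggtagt
FLNA, chrX:154374679-154374768, minus strand: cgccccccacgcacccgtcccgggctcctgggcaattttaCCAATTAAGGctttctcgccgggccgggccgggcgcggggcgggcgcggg
FHL1, chrX:136196881-136196970, plus strand: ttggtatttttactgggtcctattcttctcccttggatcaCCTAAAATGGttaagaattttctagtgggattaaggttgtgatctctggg
FHL2, upstream start, chr2:105438565-105438654, minus strand: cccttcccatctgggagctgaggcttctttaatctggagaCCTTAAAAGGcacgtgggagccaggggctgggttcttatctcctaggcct
FHL2, inner start, chr2:105399061-105399150, minus strand: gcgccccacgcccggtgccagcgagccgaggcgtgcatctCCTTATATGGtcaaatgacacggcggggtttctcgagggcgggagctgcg

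Transcript levels of the actin and SRF genes moved in both directions in LY-treated cells. TAGLN, LIMA1, FHL2, ACTA2, SRF and MRTFA rose, and MYL9, PDLIM1, CNN2, ACTB and MRTFB fell. Of the 41 members, 40 passed the filter on low values (TPM of 1 or more in 5 or more of the 10 libraries), and CNN1 did not. In the limma fit over 11663 genes, with an adjusted p under 0.05 as the threshold, 21 members were higher in LY, 9 were lower and 10 passed in neither direction. Of all tested genes, 39.8% were higher and 24.9% lower, 64.6% in either direction, so calls were common throughout the table, and the members' count is read against these shares. Changes of at least 2-fold were called in 22.1% of all tested genes and in 8 members, 5 higher and 3 lower. LY and DMSO libraries did not overlap in 26 of the 40 tested members, against 49.4% of all tested genes. Counting CNN1 as well, LY lay wholly above DMSO in 19 members and wholly below in 8, against 32.7% above and 16.7% below among all tested genes. FLNC, which passed the filter only through its LY libraries and so had to differ, is counted throughout. It is among the 21 members called higher, the 5 higher by at least 2-fold and those with LY wholly above.

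The balance of higher and lower members depended on how the libraries were scaled against each other. The median log2 fold change was 0.31 over the tested members and 0.17 over all tested genes as deposited, and relative to the whole table the members' median was 0.15. The 5 other scalings that were tried put the median of all genes between -0.06 and 0.05. The split of higher and lower members was 17 and 12 with median-ratio scaling or with mitochondrial genes removed. It was 14 and 13 with upper-quartile scaling, 13 and 13 with quantile normalization, and 19 and 12 with median-ratio scaling without NC-2. Calls over the whole table shifted the same way, with 4639 genes higher and 2899 lower as deposited, 3977 and 3756 with median-ratio scaling, and 3871 and 3812 with mitochondrial genes removed. They were 3452 and 4228 with upper-quartile scaling, 4055 and 3694 with quantile normalization, and 4231 and 4004 with median-ratio scaling without NC-2. In every one of the 21 settings run, 12 members were called higher and 9 lower. FLNC was called higher in the 20 settings that tested it. Because FLNC passed the filter only through its LY libraries, it had to differ, and its calls are no sign of stability.

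Control library NC-2 stood apart from the other DMSO libraries. Mitochondrially encoded genes took 6.43% to 14.9% of the TPM in LY and 12.2% to 14.1% in 4 DMSO libraries, but 37.5% in NC-2. NC-2 was below the other 4 controls for 23 of the 41 members, above them for 7 and among them for 11. ACTB, TMSB4X and the members' share of all TPM are given with and without NC-2. Most other changes, ratios and list counts are given with it only. The median coefficient of variation of the members was 12.3% in LY and 14.4% in DMSO, or 8.42% in DMSO without NC-2. The epithelial keratins KRT8 and KRT18, which PANC-1 expresses, ran from 941.3 to 1514 TPM in LY and from 663.6 to 1601 TPM in DMSO. KRT18 was called higher (log2 fold change 0.50), whereas the ductal keratin KRT19 was called lower, at 21.0 ± 3.47 TPM in LY and 148.1 ± 16.6 TPM in DMSO (-2.77 ± 0.13, adjusted p = 1.48e-08). Of the 6 epithelial and ductal markers only 4 passed the filter, KRT7 and CDH1 being at or near 0, and their summed level was 2146 to 2627 TPM in LY and 1857 to 2601 TPM in DMSO. Among 8 fibroblast markers, DCN, LUM and FAP were listed at 0 in every library, and the sum was 27.7 to 37.8 TPM in LY and 69.3 to 114.9 TPM in DMSO, nearly all of it COL1A2. Of 6 smooth muscle and pericyte markers, DES and ACTG2 were listed at 0 in every library and MYOCD reached 0.0129 TPM in LY-1 alone. MYH11 averaged 0.126 TPM in LY and 0.294 TPM in DMSO. NOTCH3, at 6.54 TPM in LY and 24.8 TPM in DMSO, and RGS5, at 161.6 and 230.9 TPM, were expressed and called lower. That list summed to 129.2 to 204.2 TPM in LY and 229.1 to 296.1 TPM in DMSO, most of it RGS5. The 5 leukocyte markers summed to at most 0.113 TPM in LY and 0.559 TPM in DMSO, the 6 acinar and endocrine markers were listed at 0, and of the 4 endothelial markers, with sums of 2.74 to 3.32 TPM in LY and 0.0988 to 0.535 TPM in DMSO, CDH5 carried nearly all.

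SRF and MRTFA were higher in LY-treated cells and MRTFB was lower. SRF, the transcription factor, is on chromosome 6 (hg38 43171299 to 43181507), just after the pair of CArG boxes shown above. SRF had 75.8, 87.6, 68.9, 72.0 and 79.3 TPM in LY-1 to LY-5, against 42.1, 31.7, 41.8, 42.6 and 40.2 TPM in NC-1 to NC-5. Every LY library was above every DMSO library, and NC-2 was the lowest. The log2 fold change was 0.94 ± 0.11 (SE of the limma fit, 5 libraries per group; adjusted p = 1.09e-05), and all fold changes are on the log2(TPM + 1) scale, which understates changes of low genes. MRTFA, the more abundant coactivator here, had 24.8, 27.2, 24.6, 25.6 and 28.7 TPM in LY-1 to LY-5, against 15.4, 10.7, 16.8, 13.7 and 14.7 TPM in NC-1 to NC-5. These groups did not overlap either (log2 fold change 0.85 ± 0.12, adjusted p = 5.45e-05). MRTFB had 4.21, 3.91, 2.76, 2.85 and 1.73 TPM in LY-1 to LY-5, against 5.39, 10.4, 7.47, 7.37 and 5.09 TPM in NC-1 to NC-5. All 5 LY libraries lay below all 5 DMSO libraries, with a log2 fold change of -0.99 ± 0.21 (adjusted p = 1.19e-03). The 2 coactivators therefore differed in direction, and the log2 ratio of MRTFA to MRTFB within a library was 2.77 ± 0.43 in LY and 0.93 ± 0.55 in DMSO (SD, n = 5 each). That ratio differed by 1.84 without overlap (two-sided exact permutation p = 0.00794, the smallest that this design allows, adjusted p = 0.0144 over 20 ratios). Because the 2 coactivators each lay apart in opposite directions, their ratio had to separate, and this p adds nothing to their own values. All 3 calls held under every scaling. In these bulk samples, fewer cells of a kind and less RNA per cell cannot be told apart.

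**Figure D1:**
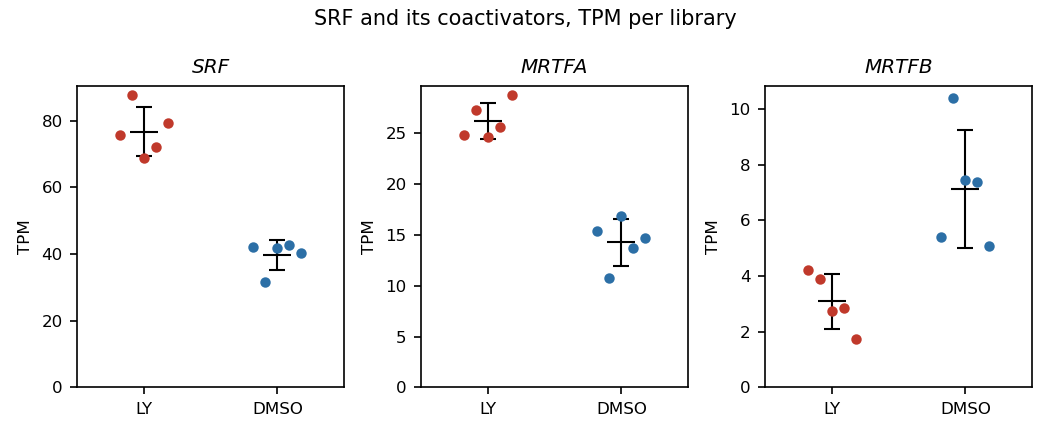
TPM of SRF, MRTFA and MRTFB in each library, LY left and DMSO right; each point is 1 library, the long bar is the mean and the error bar the SD (n = 5). LY libraries lie above DMSO libraries for SRF and MRTFA and below them for MRTFB, with no overlap.

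The 3 actin genes did not move together. ACTB, the main cytoplasmic actin, fell, whereas ACTG1, the other cytoplasmic actin, and ACTA2, the actin of smooth muscle and myofibroblasts, rose in the fit as deposited. ACTB (chromosome 7, hg38 5527147 to 5563784) had 1714, 3307, 2889, 3206 and 3425 TPM in LY-1 to LY-5, against 6828, 2961, 6925, 6212 and 6551 TPM in NC-1 to NC-5. The groups overlapped through NC-2 alone, and the other 4 DMSO libraries were at 6212 TPM or more. The log2 fold change was -0.997 ± 0.27 (adjusted p = 5.85e-03), and -1.23 without NC-2 (adjusted p = 1.14e-04). By mean TPM, ACTB ranked 34th among all genes in LY and 15th in DMSO. ACTG1 (chromosome 17, 81509971 to 81523847) had 2736, 3106, 2616, 2145 and 2112 TPM in LY-1 to LY-5, against 1977, 1984, 1823, 1978 and 1657 TPM in NC-1 to NC-5. Its groups lay close without overlap (log2 fold change 0.42 ± 0.14, adjusted p = 0.016). The ACTG1 call was lost in 4 of the 5 scalings, among them median-ratio scaling (0.27) and quantile normalization (0.46), with no change of sign.

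ACTA2 (chromosome 10, 88935074 to 88991339) had 38.9, 44.3, 42.2, 37.3 and 42.8 TPM in LY-1 to LY-5, against 17.4, 13.6, 19.8, 18.7 and 18.1 TPM in NC-1 to NC-5. All LY libraries were above all DMSO libraries, and the log2 fold change of 1.19 ± 0.11 (adjusted p = 1.82e-06) held in every setting. It shares 380 exon bases (12.8% of its exon length) with FAS on the opposite strand, which averaged 12.8 TPM in LY and 6.92 TPM in DMSO and was also called higher (log2 fold change 0.79). Whether the counting used strand is not given in the sources used here, so reads of this pair may not be separated. Within a library, the log2 ratio of ACTG1 to ACTB was -0.17 ± 0.54 in LY and -1.59 ± 0.58 in DMSO (SD, n = 5 each). It was 0.675, -0.09, -0.143, -0.58 and -0.697 in LY-1 to LY-5, so ACTG1 ranged from above ACTB to below it. In DMSO it was -1.65 or lower in 4 of the 5 controls and -0.578 in NC-2, through which the groups overlapped. The difference was 1.42 (exact permutation p = 0.0238, adjusted p = 0.034). The log2 ratio of ACTA2 to ACTB was -6.07 ± 0.38 in LY and -8.26 ± 0.34 in DMSO, a difference of 2.19 without overlap (exact permutation p = 0.00794, adjusted p = 0.0144). ACTG1 has 20 and ACTB 10 pseudogenes named in the annotation, so their TPM depend on how reads of such copies were assigned.

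**Figure D2:**
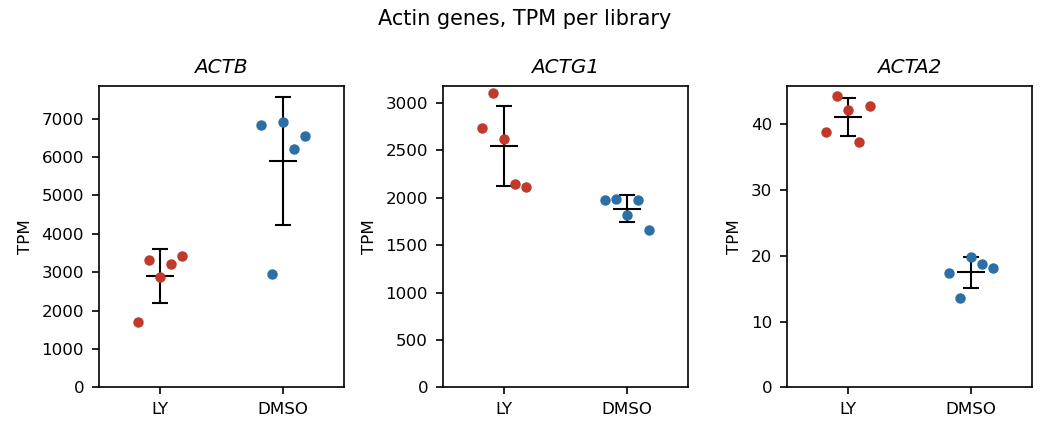
TPM of the 3 actin genes in each library, LY left and DMSO right; points are libraries, the long bar is the mean and the error bar the SD (n = 5). ACTB is lower in LY except against NC-2 at 2961 TPM, ACTA2 is higher without overlap, and ACTG1 is higher as deposited with a call that 4 of 5 other scalings did not give.

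Tropomyosins, which coat filaments and set the access of myosin and cofilin, gave 2 calls, both higher. TPM4, with a CArG box at the start shown above, averaged 452.7 ± 40.6 TPM in LY and 299.7 ± 28.4 TPM in DMSO (SD, n = 5 each). Its log2 fold change was 0.59 ± 0.10 (adjusted p = 2.36e-04), a call lost under quantile normalization. TPM1 averaged 37.3 ± 5.38 TPM in LY and 26.2 ± 3.07 TPM in DMSO (log2 fold change 0.49 ± 0.12, adjusted p = 3.01e-03), a call lost in 4 of the 5 scalings. TPM2 and TPM3 passed in neither direction as deposited. TPM2 stood at 304.0 TPM in LY and 329.3 TPM in DMSO (log2 fold change -0.11) and was called lower in all 5 scalings. TPM3 stood at 371.0 TPM in LY and 330.0 TPM in DMSO (0.14 as deposited, -0.11 to 0.09 in the scalings). The log2 ratio of TPM4 to TPM3 was 0.31 ± 0.35 in LY and -0.14 ± 0.18 in DMSO (exact permutation p = 0.0159, adjusted p = 0.0244). For TPM2 over TPM1 it was 2.99 ± 0.21 in LY and 3.60 ± 0.38 in DMSO (exact permutation p = 0.0317, adjusted p = 0.0373). The TPM4/TPM3 log2 ratio lost its call without NC-1, NC-3 or NC-4 (exact permutation adjusted p = 0.056 to 0.0747), and the TPM2/TPM1 log2 ratio without NC-1, NC-3, NC-4 or NC-5 (0.0617 to 0.0694). The TPM1/TPM3 log2 ratio did not pass (difference 0.35, exact permutation adjusted p = 0.0873) but did without LY-4 (adjusted p = 0.0132).

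Among the chains of myosin II, the motor that contracts actin filaments, 3 rose and 2 fell. MYL9, a regulatory light chain of smooth muscle and non-muscle myosin and a known SRF target, fell most. MYL9 (chromosome 20, 36541484 to 36551447) had 16.1, 19.6, 13.2, 14.6 and 17.7 TPM in LY-1 to LY-5, against 52.1, 35.9, 49.3, 49.0 and 48.0 TPM in NC-1 to NC-5. All LY libraries were below all DMSO libraries, NC-2 included (log2 fold change -1.48 ± 0.13, adjusted p = 1.44e-06). The other regulatory light chains, which neighbour each other on chromosome 18, went the other way. MYL12B averaged 616.5 ± 46.7 TPM in LY and 415.9 ± 68.6 TPM in DMSO (log2 fold change 0.58 ± 0.13, adjusted p = 2.07e-03). MYL12A averaged 395.8 ± 17.7 TPM in LY and 305.6 ± 27.2 TPM in DMSO (0.37 ± 0.09, adjusted p = 3.40e-03), a call lost in 2 of the 5 scalings. The essential light chain MYL6, at 549.8 TPM in LY and 570.7 TPM in DMSO, was not called (log2 fold change -0.00 ± 0.26).

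The heavy chains also split. MYH9, the heavy chain of non-muscle myosin IIA, averaged 412.5 ± 38.3 TPM in LY and 277.7 ± 38.4 TPM in DMSO (log2 fold change 0.58 ± 0.12, adjusted p = 9.87e-04). MYH10, that of myosin IIB, averaged 51.3 ± 5.98 TPM in LY and 70.1 ± 8.70 TPM in DMSO (-0.44 ± 0.11, adjusted p = 4.36e-03). Their log2 ratio within a library, MYH9 over MYH10, was 2.99 ± 0.27 in LY and 1.97 ± 0.20 in DMSO, without overlap (exact permutation p = 0.00794, adjusted p = 0.0144). LY lay wholly above DMSO for MYH9 and wholly below for MYH10, so this ratio had to separate. MYL9 over MYL6 was -4.98 ± 0.47 in LY and -3.51 ± 0.40 in DMSO, again without overlap (adjusted p = 0.0144, exact permutation). MYL12A over MYL12B differed by -0.21 (exact permutation adjusted p = 0.0244).

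Calponins and transgelins bind along filaments, and CNN1 and TAGLN among them mark smooth muscle differentiation. TAGLN and CALD1 rose, CNN2 and CNN3 fell, and TAGLN2 was not called. TAGLN, also called SM22-alpha and a textbook SRF target, had 30.0, 31.5, 28.6, 36.3 and 32.8 TPM in LY-1 to LY-5, against 8.23, 5.30, 10.9, 10.7 and 11.0 TPM in NC-1 to NC-5. The highest control did not reach the lowest LY library (log2 fold change 1.72 ± 0.17, adjusted p = 3.76e-06). TAGLN lies on chromosome 11 (117199321 to 117204782) and shares 11.4% of its exon bases with PCSK7 on the opposite strand, which was not called (log2 fold change -0.18). CNN1, the calponin of smooth muscle, had 0.991, 1.69, 0.709, 1.26 and 0.829 TPM in LY-1 to LY-5, against 0.307, 0.309, 0, 0 and 0.0599 TPM in NC-1 to NC-5. It was above DMSO in every LY library but stayed near 1 TPM and was not tested by the limma fit. CALD1, caldesmon, which holds myosin off the filament, averaged 81.6 ± 9.65 TPM in LY and 52.3 ± 6.12 TPM in DMSO (log2 fold change 0.63 ± 0.11, adjusted p = 4.17e-04).

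CNN2, a calponin of many cell types with a CArG box in its promoter window, went down. It had 21.0, 28.1, 24.1, 22.7 and 22.9 TPM in LY-1 to LY-5, against 62.5, 51.2, 62.5, 55.0 and 71.4 TPM in NC-1 to NC-5. The groups were far apart (log2 fold change -1.31 ± 0.11, adjusted p = 1.09e-06), and CNN2 has 11 pseudogenes named in the annotation. CNN3 averaged 9.58 ± 0.37 TPM in LY and 14.7 ± 0.73 TPM in DMSO (-0.57 ± 0.08, adjusted p = 7.30e-05). TAGLN2 was not called at 408.8 TPM in LY and 402.2 TPM in DMSO; its log2 fold change of 0.04 as deposited was negative in all 5 scalings and passed as lower under quantile normalization (-0.21, adjusted p = 0.0364). Within a library, the log2 ratio of TAGLN to TAGLN2 was -3.64 ± 0.08 in LY and -5.33 ± 0.19 in DMSO, and that of CNN2 to CNN3 was 1.22 ± 0.13 in LY and 1.96 ± 0.17 in DMSO. Neither ratio overlapped between the groups (exact permutation p = 0.00794 each, adjusted p = 0.0144). With CNN1 at or near 0 in DMSO, the CNN1/CNN3 log2 ratio was set largely by the pseudocount (difference 1.45 at 1 TPM and 3.19 at 0.1 TPM) and is given without a test.

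**Figure D3:**
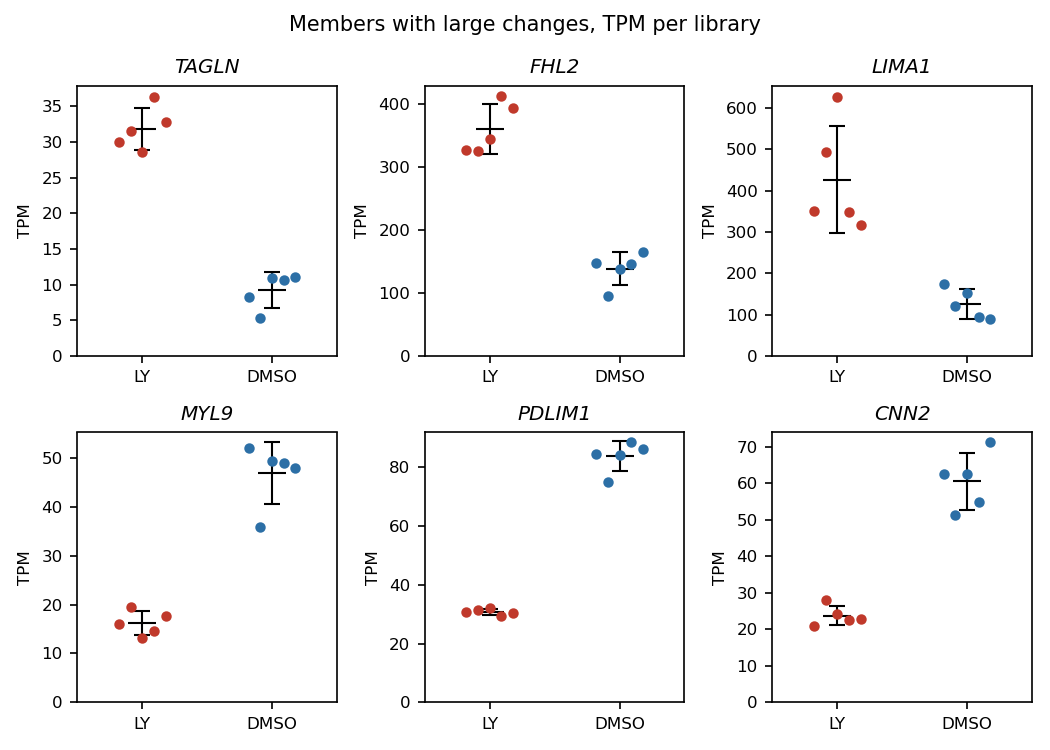
TPM per library of TAGLN, FHL2 and LIMA1 (upper row, higher in LY) and of MYL9, PDLIM1 and CNN2 (lower row, lower in LY), LY left and DMSO right; points are libraries, the long bar is the mean and the error bar the SD (n = 5). The groups do not overlap in any of the 6 panels.

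Crosslinkers and adhesion linkers tie filaments into bundles, networks and focal adhesions. As deposited, 5 of 6 were higher in LY and none was called lower; in the 5 scalings 3 or 4 were higher and at most 1 lower. FLNA, the widespread filamin, averaged 324.4 ± 41.6 TPM in LY and 188.3 ± 43.6 TPM in DMSO (log2 fold change 0.81 ± 0.18, adjusted p = 1.60e-03). ACTN4 averaged 427.6 ± 42.3 TPM in LY and 265.6 ± 28.5 TPM in DMSO (0.69 ± 0.11, adjusted p = 1.40e-04), and its partner alpha-actinin ACTN1 270.2 ± 22.9 TPM in LY and 197.9 ± 16.5 TPM in DMSO (0.45 ± 0.10, adjusted p = 1.44e-03). The ACTN1 call was lost under quantile and upper-quartile scaling, while FLNA and ACTN4 held in every setting. FLNC, the filamin of muscle, had 2.23, 3.24, 2.69, 2.76 and 4.01 TPM in LY-1 to LY-5, against 0.623, 0.396, 0.599, 0.307 and 0.533 TPM in NC-1 to NC-5. It passed the filter only through its LY libraries and so had to differ; the fit gave a log2 fold change of 1.41 ± 0.13 (adjusted p = 1.75e-06). ZYX, zyxin of focal adhesions, averaged 177.8 ± 30.1 TPM in LY and 133.2 ± 15.6 TPM in DMSO (0.40 ± 0.14, adjusted p = 0.0218), a call lost in all 5 scalings. The ZYX log2 fold change also lost its call without LY-1, LY-2, LY-4, NC-4 or NC-5 (adjusted p = 0.0522 to 0.0567).

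Vinculin (VCL), which couples integrin adhesions to actin and is a classical SRF target, was not called. It had 139.6, 138.6, 144.3, 83.0 and 83.5 TPM in LY-1 to LY-5, against 214.4, 178.5, 127.2, 123.3 and 132.1 TPM in NC-1 to NC-5. Both groups spread widely and overlapped (log2 fold change -0.40 ± 0.21, adjusted p = 0.112), and 2 of the 5 scalings called it lower. ACTN1 over ACTN4 differed by -0.24 on the log2 scale (exact permutation adjusted p = 0.0373). The FLNC/FLNA log2 ratio is given without a test because FLNC had to differ, and its difference depended on the pseudocount (0.60 at 1 TPM and 1.57 at 0.1 TPM).

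LIM and PDZ-LIM proteins sit on stress fibres and adhesions, and FHL2 is known both as an SRF target and as a protein that binds SRF. LIMA1, EPLIN, which bundles and stabilises filaments, had 350.1, 492.5, 626.6, 348.9 and 317.1 TPM in LY-1 to LY-5, against 172.9, 120.8, 153.4, 94.0 and 89.3 TPM in NC-1 to NC-5. Its log2 fold change was 1.75 ± 0.23 (adjusted p = 3.22e-05), without overlap. FHL2, with CArG boxes at both starts shown above, had 327.2, 325.3, 345.1, 413.2 and 393.8 TPM in LY-1 to LY-5, against 148.3, 95.4, 138.9, 145.9 and 165.3 TPM in NC-1 to NC-5. Again all LY libraries were above all DMSO libraries (1.39 ± 0.14, adjusted p = 5.08e-06). FHL1, its relative best known in muscle, with a CArG box at the start shown above, averaged 10.6 ± 1.69 TPM in LY and 19.2 ± 4.90 TPM in DMSO (-0.78 ± 0.18, adjusted p = 2.12e-03). FHL1 over FHL2 within a library was -4.97 ± 0.32 in LY and -2.80 ± 0.41 in DMSO on the log2 scale, without overlap (exact permutation adjusted p = 0.0144). LY lay wholly below DMSO for FHL1 and wholly above for FHL2, so this ratio had to separate.

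PDLIM proteins bind alpha-actinin through their PDZ domain. PDLIM1 had 30.7, 31.3, 32.1, 29.5 and 30.4 TPM in LY-1 to LY-5, against 84.5, 75.0, 84.0, 88.5 and 86.2 TPM in NC-1 to NC-5. It varied less among the LY libraries than any other tested member (coefficient of variation 3.18%) and gave the smallest adjusted p of the members (log2 fold change -1.41 ± 0.08, adjusted p = 5.02e-08). PDLIM5 had 44.1, 41.8, 46.1, 44.2 and 62.0 TPM in LY-1 to LY-5, against 23.9, 22.6, 24.2, 21.6 and 29.6 TPM in NC-1 to NC-5. LY-5 stood above the other LY libraries, and the groups did not overlap (0.93 ± 0.13, adjusted p = 4.11e-05). PDLIM7 was not called at 108.5 TPM in LY and 122.3 TPM in DMSO (-0.17) but was called lower in all 5 scalings. PDLIM5 over PDLIM1 was 0.60 ± 0.24 in LY and -1.74 ± 0.17 in DMSO, so the order of the pair was opposite in the 2 groups. That difference was 2.34, and PDLIM7 over PDLIM1 differed by 1.24 (exact permutation adjusted p = 0.0144 for both). LY lay wholly above DMSO for PDLIM5 and wholly below for PDLIM1, so the PDLIM5/PDLIM1 ratio had to separate.

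Genes of filament assembly, capping and monomer binding include the most abundant members, and most were not called. CFL1, cofilin, which severs filaments, had 876.3, 1027, 755.5, 642.7 and 787.7 TPM in LY-1 to LY-5, against 1266, 1270, 1179, 1130 and 1728 TPM in NC-1 to NC-5. Every LY library was below every control, and NC-5 was the highest (log2 fold change -0.69 ± 0.15, adjusted p = 1.91e-03). PFN1, profilin, which hands monomers to growing filaments, had 1846, 2109, 868.2, 1470 and 1350 TPM in LY-1 to LY-5, against 2022, 1732, 1845, 1293 and 1737 TPM in NC-1 to NC-5. These groups overlapped throughout (-0.22 ± 0.22, adjusted p = 0.394). The thymosin TMSB4X, which sequesters monomers, had 6205, 5219, 7609, 9584 and 8238 TPM in LY-1 to LY-5, against 10969, 5944, 11729, 11965 and 13337 TPM in NC-1 to NC-5. Here too only NC-2 reached the LY range, and the log2 fold change of -0.53 ± 0.24 (adjusted p = 0.0742) became -0.73 (adjusted p = 2.23e-03) without NC-2. TMSB4X was called lower in 4 of the 5 scalings.

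Its paralog TMSB10 had 4880, 5409, 6989, 6041 and 6083 TPM in LY-1 to LY-5, against 6497, 3742, 6279, 6299 and 6401 TPM in NC-1 to NC-5. The groups overlapped (log2 fold change 0.03 ± 0.18, adjusted p = 0.903), with a sign that varied between scalings (-0.22 to 0.37). TMSB10 over TMSB4X was -0.30 ± 0.28 in LY and -0.86 ± 0.15 in DMSO on the log2 scale, a difference of 0.56 without overlap (exact permutation adjusted p = 0.0144). ACTR3 and ARPC2 are subunits of the complex that nucleates branched filaments. ACTR3 averaged 149.8 ± 17.3 TPM in LY and 106.7 ± 23.1 TPM in DMSO (0.51 ± 0.16, adjusted p = 0.0161), a call lost under quantile and upper-quartile scaling. ARPC2, at 474.6 TPM in LY and 445.0 TPM in DMSO, was not called (0.08 as deposited, -0.17 to -0.03 in the scalings). CAPZA1, a subunit of the protein that caps filament ends, averaged 199.6 ± 21.0 TPM in LY and 166.9 ± 6.49 TPM in DMSO. Its small change (0.25 ± 0.09, adjusted p = 0.0327) was lost in every scaling and turned to -0.02 under quantile normalization (adjusted p = 0.873). The CAPZA1 log2 fold change also lost its call without any 1 of LY-1, LY-3, LY-4, NC-1, NC-3 or NC-4 (adjusted p = 0.0647 to 0.0769). The CFL1/PFN1 log2 ratio did not pass (difference -0.46, exact permutation adjusted p = 0.0752) but did without LY-3 (-0.63, adjusted p = 0.0244). The ACTR3/ARPC2 log2 ratio did not pass either (difference 0.43, exact permutation adjusted p = 0.0617) but did without LY-2 or NC-5 (adjusted p = 0.0441 and 0.0373).

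**Figure D4:**
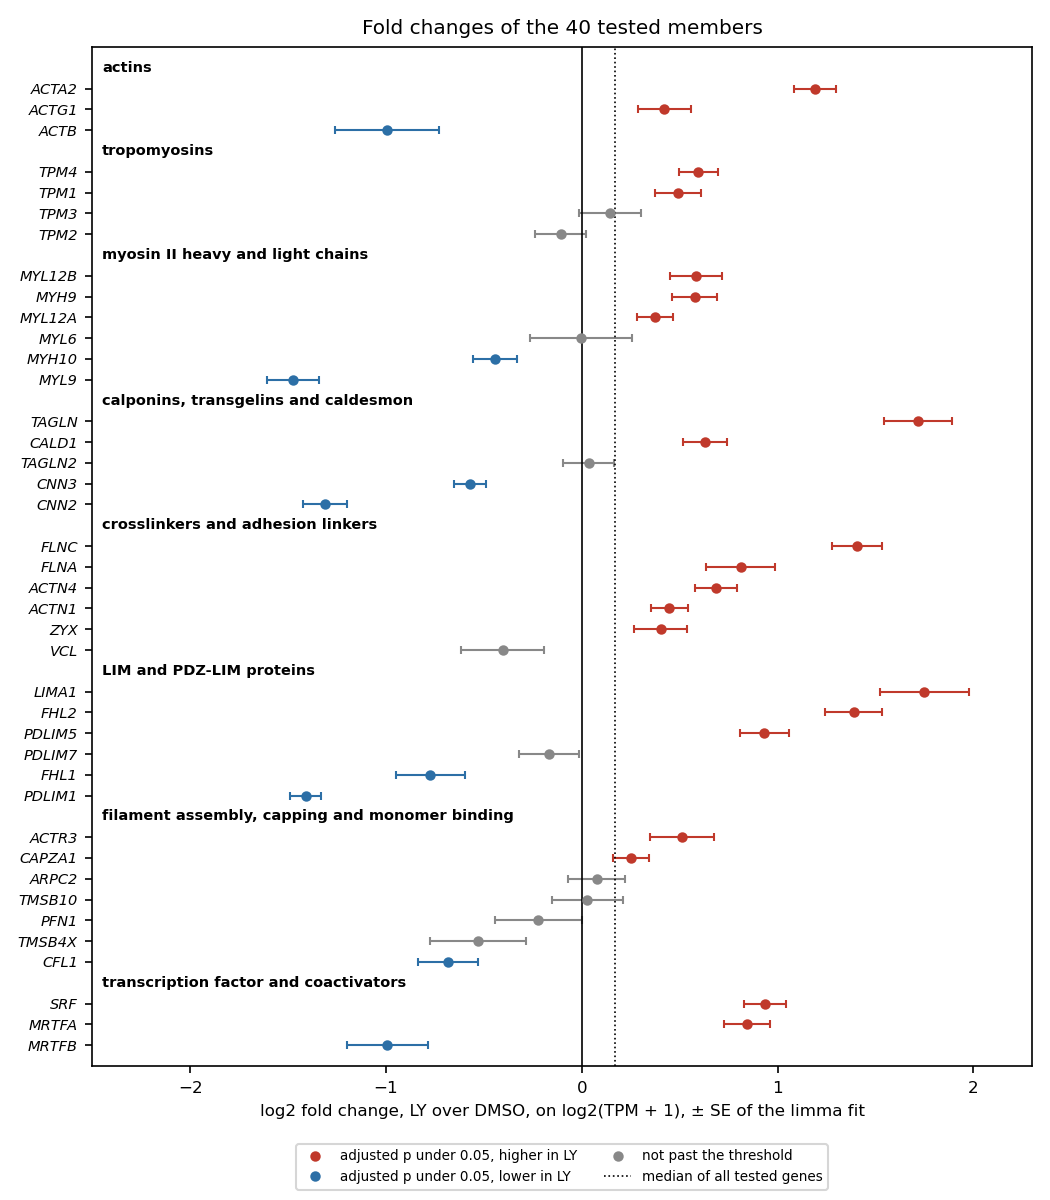
Log2 fold changes of the 40 tested members, LY over DMSO on log2(TPM + 1) with the SE of the limma fit, grouped by role; red is higher and blue lower at an adjusted p under 0.05, grey did not pass, and the dotted line is the median of all tested genes at 0.17. Each role but the tropomyosins and the crosslinkers holds called members on both sides of 0; among called members the sign turned in the other scalings for CAPZA1 (-0.02 under quantile normalization).

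Read by role, the 21 higher and 9 lower calls were 2 and 1 of 3 actins, 2 and 0 of 4 tropomyosins, 3 and 2 of 6 myosin chains, and 2 and 2 of 5 tested calponins, transgelins and caldesmon. They were 5 and 0 of 6 crosslinkers, 3 and 2 of 6 LIM proteins, 2 and 1 of 7 assembly factors, and 2 and 1 of SRF and its coactivators. The 5 scalings changed these splits to 1 or 2 actins higher and 1 lower, at most 2 tropomyosins higher and 1 lower, 3 LIM proteins higher and 3 lower, and at most 1 assembly factor higher and at most 2 lower. In the promoter table, a CArG box was held by 6 of 20 members called higher, 2 of 7 called lower and 0 of 10 not called. ACTB, MYL9 and TAGLN, each of them called, are not in that table. The number of windows differs between members (12 for FHL1, 1 for CNN2), and whether CArG boxes go with the calls was not tested.

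Summed, the 41 members took 2.81 ± 0.20% of a library's TPM in LY and 3.29 ± 0.61% in DMSO (SD, n = 5 each). NC-2 was at 2.21% and the other DMSO libraries at 3.46% to 3.71%, so that LY, at 2.48% to 3.0%, lay below all controls but NC-2. The difference was -0.48 percentage points, and -0.75 without NC-2. With mitochondrially encoded genes left out of the total, the share was 3.10 ± 0.11% in LY (2.92% to 3.24%) and 4.0 ± 0.27% in DMSO (3.54% to 4.23%), without overlap. ACTB and ACTG1 made up 19.4 ± 2.26% of the members' TPM in LY and 23.5 ± 1.31% in DMSO, and the 2 thymosins 38.5% to 52.1% in LY and 43.7% to 53.2% in DMSO. The sum thus follows the most abundant members. ACTB averaged 2908 TPM in LY and 5895 TPM in DMSO, and TMSB4X 7371 TPM in LY and 10789 TPM in DMSO. By count, 21 members were called higher and 9 lower, so a lower sum does not mean that most members fell.

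Of the 20 ratios between members, 18 did not involve the low genes CNN1 and FLNC. Of these 18, 15 differed between the groups at an adjusted p under 0.05 by the two-sided exact permutation test (adjusted over all 20), and 10 did not overlap. The pairs were chosen with earlier results of these data known, and several share a member or join members called in opposite directions. Both members of MRTFA/MRTFB, MYH9/MYH10, PDLIM5/PDLIM1 and FHL1/FHL2 lay wholly apart in opposite directions. These ratios had to separate, and they are counted among the 15 and the 10. The same count was not made for pairs of other genes. Among all tested genes 64.6% were called and 49.4% did not overlap, so the ratio counts are not read as a result about the members. Apart from the pseudocount, a ratio within a library is unchanged by a scaling that multiplies each library by 1 factor, whereas quantile normalization can change it. Further log2 differences, LY minus DMSO, were those of MYH9/MYH10 (1.02), TPM2/TPM1 (-0.60), MYL9/MYL6 (-1.47), CNN2/CNN3 (-0.74), TAGLN/TAGLN2 (1.68) and TPM4/TPM3 (0.45).

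**Figure D5:**
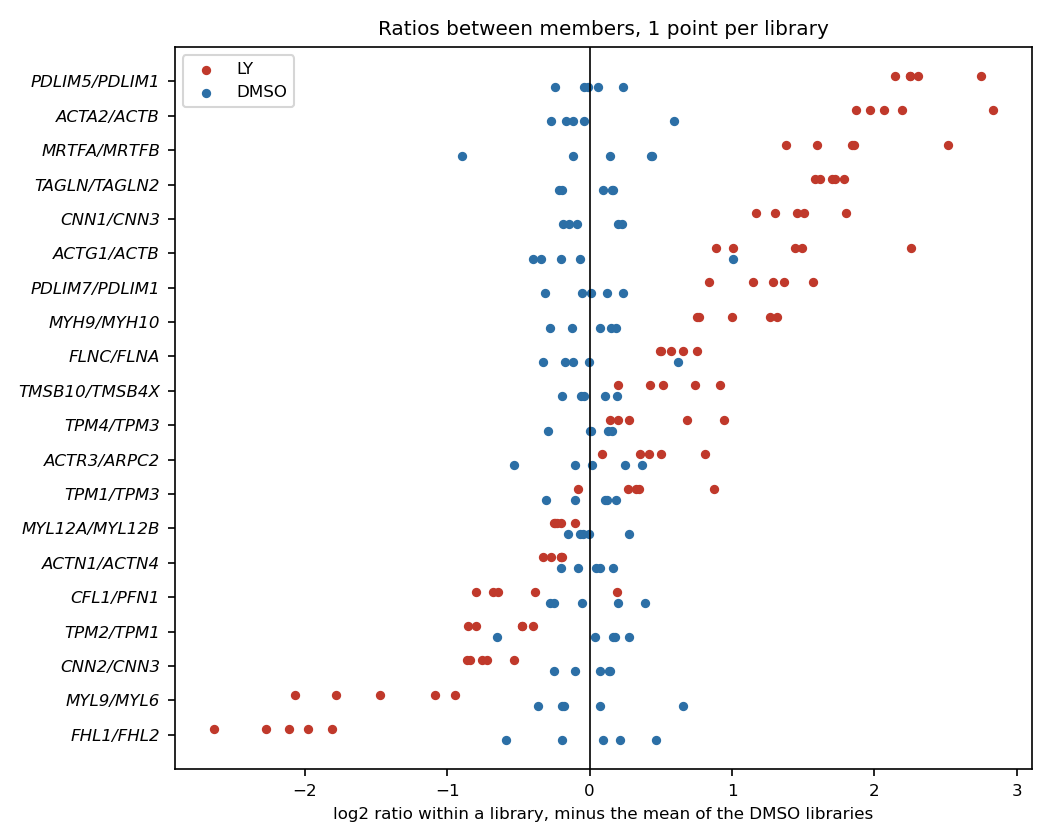
Log2 ratios between 2 members within each library, each shown minus the mean of its DMSO libraries (LY red, DMSO blue, 1 point per library). PDLIM5/PDLIM1 lies furthest to the right (difference 2.34) and FHL1/FHL2 furthest to the left (-2.17); in ACTG1/ACTB, 1 DMSO point, NC-2, lies among the LY points.

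Genes around the members were read from 8 lists of 155 further genes, of which 124 were tested. As deposited 49 were higher, 31 lower and 44 not called, with a median log2 fold change of 0.16, close to the 0.17 of all tested genes. Relative to the 39.8% higher and 24.9% lower in the whole table, these counts are near the background.

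The other subunits of the branching nucleator gave 0 higher and 3 lower of 7 (median -0.30), and 5 or 6 lower in the scalings. ARPC1B averaged 256.0 ± 31.1 TPM in LY and 734.7 ± 203.5 TPM in DMSO (log2 fold change -1.46 ± 0.21, adjusted p = 7.20e-05), and ARPC1A 229.1 ± 7.41 TPM in LY and 428.7 ± 54.8 TPM in DMSO (-0.89 ± 0.11). Nucleation promoting factors and formins, which start and extend filaments, gave 12 higher and 4 lower of 21 (median 0.47), or 9 to 11 higher and 5 to 8 lower in the scalings. SPIRE1, a nucleator, averaged 178.3 ± 44.6 TPM in LY and 33.4 ± 6.49 TPM in DMSO (2.36 ± 0.18, adjusted p = 4.41e-07). The formin DIAPH3 averaged 80.9 ± 7.34 TPM in LY and 22.3 ± 3.60 TPM in DMSO (1.82 ± 0.12). Another formin, FHOD1, was lower, at 5.14 ± 0.33 TPM in LY and 19.0 ± 3.28 TPM in DMSO (-1.68 ± 0.13).

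Capping, severing and monomer-binding genes gave 1 higher and 5 lower of 16 (median -0.14), and at most 1 higher and 8 to 10 lower in the scalings. Gelsolin (GSN), which severs and caps filaments, averaged 64.2 ± 6.97 TPM in LY and 315.5 ± 77.0 TPM in DMSO (-2.24 ± 0.18, adjusted p = 5.20e-07). TWF2, a twinfilin that binds monomers, averaged 18.9 ± 1.26 TPM in LY and 57.9 ± 13.8 TPM in DMSO (-1.52 ± 0.17). CFL2, the cofilin of muscle, was higher at 114.6 ± 12.6 TPM in LY and 60.9 ± 21.5 TPM in DMSO (1.002 ± 0.27, adjusted p = 6.55e-03), opposite to CFL1, with a call lost in 1 of the 5 scalings. Bundling proteins and membrane linkers gave 6 higher and 4 lower of 16, or 5 to 7 higher and 5 or 6 lower in the scalings. Fascin (FSCN1), which bundles filopodial filaments, fell to 44.2 ± 4.28 TPM in LY, against 147.0 ± 25.8 TPM in DMSO (-1.70 ± 0.14). MARCKSL1 averaged 93.0 ± 9.55 TPM in LY and 284.9 ± 39.8 TPM in DMSO (-1.60 ± 0.12). Ezrin (EZR), which ties filaments to the plasma membrane, averaged 784.2 ± 44.8 TPM in LY and 296.9 ± 13.2 TPM in DMSO (1.40 ± 0.09, adjusted p = 9.09e-08).

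Other myosin genes gave 5 higher and 4 lower of 11, or 3 or 4 higher and 4 lower in the scalings. MYO18A averaged 28.1 ± 3.25 TPM in LY and 100.8 ± 18.7 TPM in DMSO (-1.79 ± 0.14), and the light chain MYL5 ran from 23.3 to 34.9 TPM in LY and from 9.36 to 13.5 TPM in DMSO (1.19 ± 0.14). MYL6B, a light chain whose exons overlap those of MYL6 on the same strand, averaged 12.7 ± 1.79 TPM in LY and 33.3 ± 11.1 TPM in DMSO (-1.24 ± 0.26).

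Smooth muscle and LIM genes known as SRF targets gave 5 higher and 5 lower of 14 (median 0.00), or 3 or 4 higher and 5 or 6 lower in the scalings. Smoothelin (SMTN), a protein of contractile filaments, averaged 90.5 ± 12.5 TPM in LY and 22.0 ± 3.16 TPM in DMSO (1.99 ± 0.13, adjusted p = 1.43e-07). CRIP2, a LIM protein, averaged 13.5 ± 2.53 TPM in LY and 44.2 ± 12.4 TPM in DMSO (-1.62 ± 0.18). Partners of SRF and actin sensors gave 5 higher and 2 lower of 9 (median 0.38), or 3 and 2 in the scalings. PHACTR2, which like the MRTFs binds G-actin through RPEL motifs, averaged 8.93 ± 1.59 TPM in LY and 2.85 ± 0.40 TPM in DMSO (1.36 ± 0.13). ELK4, a ternary complex factor that shares SRF with the MRTFs, averaged 18.5 ± 1.26 TPM in LY and 9.10 ± 0.41 TPM in DMSO (0.95 ± 0.09). MICAL2, an oxidase of actin known to raise MRTF activity, averaged 23.5 ± 1.55 TPM in LY and 29.4 ± 2.86 TPM in DMSO (-0.31 ± 0.09, adjusted p = 0.0135).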

How the data were processed

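Gene-level TPM for 10 PANC-1 libraries were computed and deposited by the authors, 1 column per library. Columns sum to 999932 to 999967 over 20263 genes with human Ensembl IDs, and no scaling across libraries is stated. Per the labels' protocols, libraries used the Hieff NGS MaxUp mRNA kit. RNA came from an RNeasy kit per the labels but from Trizol per the series text, which also gives 4 samples per group where the labels list 5. The submitters' processing notes list the builds GRCm38, hg38 and mm10 without roles; aligner, counting tool and strand use are not stated there. TPM carry no depth, hence no counting intervals. The NC columns, a name found in no sample title, were assigned to DMSO as a group. No libraries were identical, and within groups Spearman's correlation across genes was 0.96 to 0.988.

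From these values, log2(TPM + 1) was fitted with limma 3.58.1 (R 4.3.3, mean-variance trend) on the 11663 genes that reached a TPM of 1 in 5 or more libraries. The group was the only term and Benjamini-Hochberg adjustment covered all tested genes. The fit was tested on simulated data. Within-library ratios of members were log2((TPM + 1)/(TPM + 1)), compared by two-sided exact permutation of the group labels (smallest p 0.0079) and adjusted over 20 ratios. The alternatives tried were a pseudocount of 0.1 or 0.5, no filter or a TPM minimum of 5, 5 scalings, 2 variance models and each library left out. Symbols came from a gene name table (20148 genes) and GENCODE 29 (76 more), and 39 genes stayed unnamed; positions and exon overlaps are from GENCODE 29 on hg38, promoters from RefSeq on GRCh38.p14. The members, lists, ratios and alternatives were chosen with earlier results of these data known. All members are named. Those with the 12 largest called changes, the 6 most abundant, SRF, MRTFA and MRTFB have each library's value, and CNN1 and VCL were added after their values were seen. Each further list gives its 2 largest called changes (mean TPM 5 or more in the higher group) and the largest the opposite way. Of these lists, 1 counts in the totals but is not reported here.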

Additional observations from a re-analysis of the deposited data

Results flagged for a closer look

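A library was marked where its gap to the nearest other library of its group exceeded 0.71 of the group's range (Dixon's ratio for 5 samples), which chance gives in about 1 in 20 groups. Of 124 sets of values examined 18 were marked, 14 of them for control library NC-2. Over the members alone 13 of 82 sets were marked, 10 of them for NC-2.

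NC-2 was the lowest DMSO library for ACTB (2961 TPM), TPM2 (241.3 TPM), MYL9 (35.9 TPM), MYL12B (295.1 TPM), TAGLN2 (292.7 TPM), FLNA (111.6 TPM), ACTR3 (66.8 TPM), TMSB10 (3742 TPM) and SRF (31.7 TPM). It was the highest for TPM4 (350.0 TPM). The same library stood apart in the log2 ratios ACTG1/ACTB (-0.58), ACTA2/ACTB (-7.66) and TPM2/TPM1 (2.94), and in the members' share of all TPM (2.21%). Mitochondrially encoded genes took 37.5% of its TPM, and their part in these values was not tested.

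Other marks were LY-5 for PDLIM5 (62.0 TPM) and for the log2 ratio PDLIM5/PDLIM1 (1.01), LY-2 for ARPC2 (655.5 TPM) and NC-5 for CFL1 (1728 TPM).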

How the results depend on the processing

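Scaling between libraries was the choice that changed most. As deposited 21 members were higher in LY and 9 lower, with 4639 of all tested genes higher and 2899 lower. Quantile normalization gave 13 and 13 members, with 4055 and 3694 of all genes. The members' median log2 fold change relative to that of all genes was 0.15 as deposited and 0.08 under quantile normalization.

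Across all alternatives but the left-out libraries, 380 values of single members kept their direction and side of the threshold, 24 (8 members) lost the call, 16 (4 members) gained one and 19 (5 members) changed sign; the cause was not tested. The TPM3 log2 fold change became -0.002 with median-ratio scaling, -0.106 with quantile normalization, -0.101 with upper-quartile scaling and -0.012 without mitochondrial genes. In the same order the TAGLN2 log2 fold change became -0.112, -0.211, -0.211 and -0.123, and -0.153 with median-ratio scaling without NC-2. The ARPC2 log2 fold change became -0.070, -0.145, -0.170 and -0.081, and -0.027 with median-ratio scaling without NC-2. The TMSB10 log2 fold change became -0.119, -0.219 and -0.130 with median-ratio scaling, upper-quartile scaling and without mitochondrial genes, and -0.203 with median-ratio scaling without NC-2. CAPZA1 became -0.022 under quantile normalization. Apart from CAPZA1, none of these 5 members was called as deposited.

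With each library left out in turn, 378 values were kept, 11 calls were lost (ZYX and CAPZA1), 1 was gained (TMSB4X without NC-2) and 10 values of uncalled members changed sign. These were the MYL6 log2 fold change (-0.259 to 0.128), the TAGLN2 log2 fold change (-0.076 to 0.081), the ARPC2 log2 fold change (-0.046 to 0.134) and the TMSB10 log2 fold change (-0.126 to 0.092). The counts ran from 19 to 21 higher and from 9 to 10 lower, and the members' share of all TPM differed by -0.75 to -0.38 percentage points. Leaving out a library changed 11 calls of ratios. No paired analysis was possible because the control columns carry numbers that no label ties to a numbered DMSO sample. Depth is unknown, so the precision of low members such as CNN1 and FLNC cannot be stated.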

Other observations

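The same promoter windows were searched on both strands for 2 further short motifs. GGAATG, the core bound by TEAD factors, was in 14 of the 38 members (36.8%) and in 15 of their 81 windows (18.5%), against 16.7% of all genes and 14.0% of all windows in the table. The members have more windows per gene than the table at large, so the share of windows is the closer comparison. TGANTCA, the AP-1 site, was in 5 members (13.2%) and 8.64% of their windows, against 9.37% of all genes and 7.71% of all windows. Here too overlapping windows of a gene count separately, and the same TGAGTCA of FHL1 lies in more than 1 window.

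In the annotation, exons of 12 members overlap those of another gene in the table, and 18 members have pseudogenes that carry their name. The shared part was 15.1% of the exon bases of CAPZA1 (with ST7L), 14.2% of ACTN4 (CAPN12), 12.9% of CFL1 (MUS81), 11.2% of MYL6 (SMARCC2) and 11.1% of VCL (AP3M1), each on the opposite strand. NDEL1, which shares 72 exon bases with MYH10 on the opposite strand, averaged 65.7 ± 11.6 TPM in LY and 34.1 ± 5.06 TPM in DMSO (log2 fold change 0.92), opposite to MYH10. SGSM3, which shares 9 exon bases with MRTFA on the opposite strand, averaged 10.2 ± 1.80 TPM in LY and 23.3 ± 4.64 TPM in DMSO (-1.11), opposite to MRTFA.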
